A study of Mus musculus with 22 samples.

Results

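The mouse genome carries a large family of mitochondrial carriers, the Slc25 family, and its transcripts were followed in livers of mice given diclofenac or saline. The members were taken by name, as the array probe sets annotated to a single gene symbol of the form Slc25a followed by a number. No measured value entered this rule, although earlier results of these data were known. This gave 44 genes of 18194 with a probe set of their own, carried by 93 probe sets, of which 21 genes had 1 and the others up to 8. All mice were male, of the strain C57BL6 and 8 weeks old. The treated mice received diclofenac sodium, a non-steroidal anti-inflammatory drug, at 30 mg/kg by intraperitoneal injection once a day, and control mice received saline by the same schedule. Whole liver was taken at day 1, day 3 and day 14, and RNA was measured on Affymetrix Mouse 430 2.0 arrays. Each treatment had 3 arrays at days 1 and 3 and 5 arrays at day 14. The labels give 5 mice per group at every time, and nothing else ties an array to a mouse, so that p-values measure the spread between these arrays.

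Most mitochondrial carriers are small proteins of the inner mitochondrial membrane, and many exchange solutes between cytosol and matrix. They pass ADP and ATP, phosphate, di- and tricarboxylates, amino acids, nucleotides, cofactors and iron. In liver they serve oxidative phosphorylation, gluconeogenesis, the urea cycle, fatty acid oxidation and the transfer of reducing equivalents into the matrix. They are made on cytosolic ribosomes, and most are inserted into the inner membrane by the TIM22 import machinery.

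Values are deposited MAS5 signals on a linear scale, and differences are on the log2 scale, diclofenac minus saline unless said otherwise. A level cannot be set against that of another gene, because probe sets differ in how well they bind. Genes entered a test if at least 3 arrays of the model held them above that array's median. At days 1 and 3 this left 38 carriers of 12884 genes, and at day 14 it left 35 of 11884. In all 22 arrays 33 carriers lay above the median. Slc25a14, Slc25a24, Slc25a35, Slc25a48 and Slc25a53 were tested although they lay below it in some arrays, so that a high group could have carried them in. Slc25a2, a carrier of basic amino acids, Slc25a18, a glutamate carrier, Slc25a27, Slc25a31, an adenine nucleotide translocase known from testis, Slc25a41 and Slc25a54 were not tested at any time. All 5 hepatocyte markers with a probe set lay above the array's median in every array, and none of the 5 markers of muscle and brown fat did so in all arrays of any group. In whole liver, fewer cells of a type and less RNA per cell cannot be told apart.

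Some livers and some days stood apart. Diclofenac day 14 replicate 3 was the outlying array of its group for 1671 genes, 14.1% of those tested, against 0.362% to 1.14% for the other arrays of the group. Its summed neutrophil markers reached 24393, against 759 to 2780 in the other diclofenac livers and 327 to 555 in saline livers of day 14. Its Kupffer cell and macrophage sum was 32296, against 7379 to 11107 in the other diclofenac livers. Its cholangiocyte sum was 2358, against 321 to 481. The stellate cell and endothelial sums were also highest in this liver, and the erythroid, T and B cell and muscle sums were lowest. At day 1 the neutrophil sum was 25702 in diclofenac replicate 2, against 1641 and 1891 in the other diclofenac livers and 672 to 1088 in saline livers. At day 3 it was 2084 to 3528 in diclofenac livers and 418 to 605 in saline livers. None of the 7 neutrophil markers tested passed the test at any day, with median differences of 1.49, 1.59 and 1.89 at days 1, 3 and 14. The 7 markers of Kupffer cells and macrophages had medians of 0.45, 0.35 and 0.71. Of these, 4 at day 1, 5 at day 3 and 0 at day 14 lay wholly above saline livers. Of the 7 neutrophil markers 3, 4 and 2 did so, and of all genes 8.23%, 10.8% and 2.18%. The 5 stellate cell markers had medians of -0.48, -0.27 and -0.33. Wholly below saline livers lay 2, 2 and 0 of them, against 8.1%, 9.21% and 1.6% of all genes. No marker of the macrophage or stellate list passed the test. The control probe sets for 18S RNA averaged 14.68 in saline arrays of day 3 and 12.05 in those of day 1 on the log2 scale, so that day and array processing cannot be told apart in a comparison between days. The log2 ratio of 3 prime to 5 prime control probe sets, a sign of RNA quality, was 0.74 to 0.83 in saline arrays of day 3 and 0.56 to 0.62 in those of day 1.

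The first question was which carriers differed between diclofenac and saline livers at each day. At day 1 none of the 38 carriers passed limma's test at an adjusted p under 0.05, and neither did any other gene (0.0%). At an unadjusted p under 0.05 there were 8 carriers, against 13.0% of all genes. The test named in the study's methods, at its 1.5-fold threshold, took 1 carrier, Slc25a14, against 1.46% of all genes, and none after adjustment. Its saline signals of day 1 were 24.6 to 44, below the median of each of those arrays. At day 3 Slc25a33 was the 1 carrier that passed, and it was lower. Among all genes 0.202% passed at day 3 and 0.0776% were lower. These 26 genes became 178 without diclofenac day 1 replicate 2, and 0 without saline day 3 replicate 3 or diclofenac day 3 replicate 1. At day 14 none of the 35 carriers passed in limma, as for all genes (0.0%), although 8 carriers, against 10.8% of all genes, had an unadjusted p under 0.05, 7 of them lower in diclofenac livers, against 5.02% of all genes. The methods' own test took 2 carriers at day 14, against 2.39% of all genes, and none after adjustment. Without diclofenac replicate 3, 123 of 11742 genes passed in limma at day 14, and still no carrier.

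The median carrier difference was -0.02 at day 1, -0.04 at day 3 and -0.16 at day 14, beside 0.0, 0.01 and -0.01 over all genes tested. At day 14 the difference was below 0 for 26 of 35 carriers, 74.3%, and for 52.2% of all genes. Without diclofenac replicate 3 it was below 0 for 25 carriers, and their median was -0.11. The ratio of 3 prime to 5 prime controls was 0.69 to 0.81 in diclofenac arrays of day 14 and 0.55 to 0.71 in saline arrays, and its part was not tested. Carriers whose diclofenac livers all lay above the saline livers numbered 4 at day 1, 5 at day 3 and 1 at day 14, against 8.23%, 10.8% and 2.18% of all genes. Those lying wholly below numbered 3, 8 and 3, against 8.1%, 9.21% and 1.6%. The difference was within 0.3 in either direction for 28 of 38 carriers at day 1, for 28 at day 3 and for 24 of 35 at day 14.

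**Figure D1:**
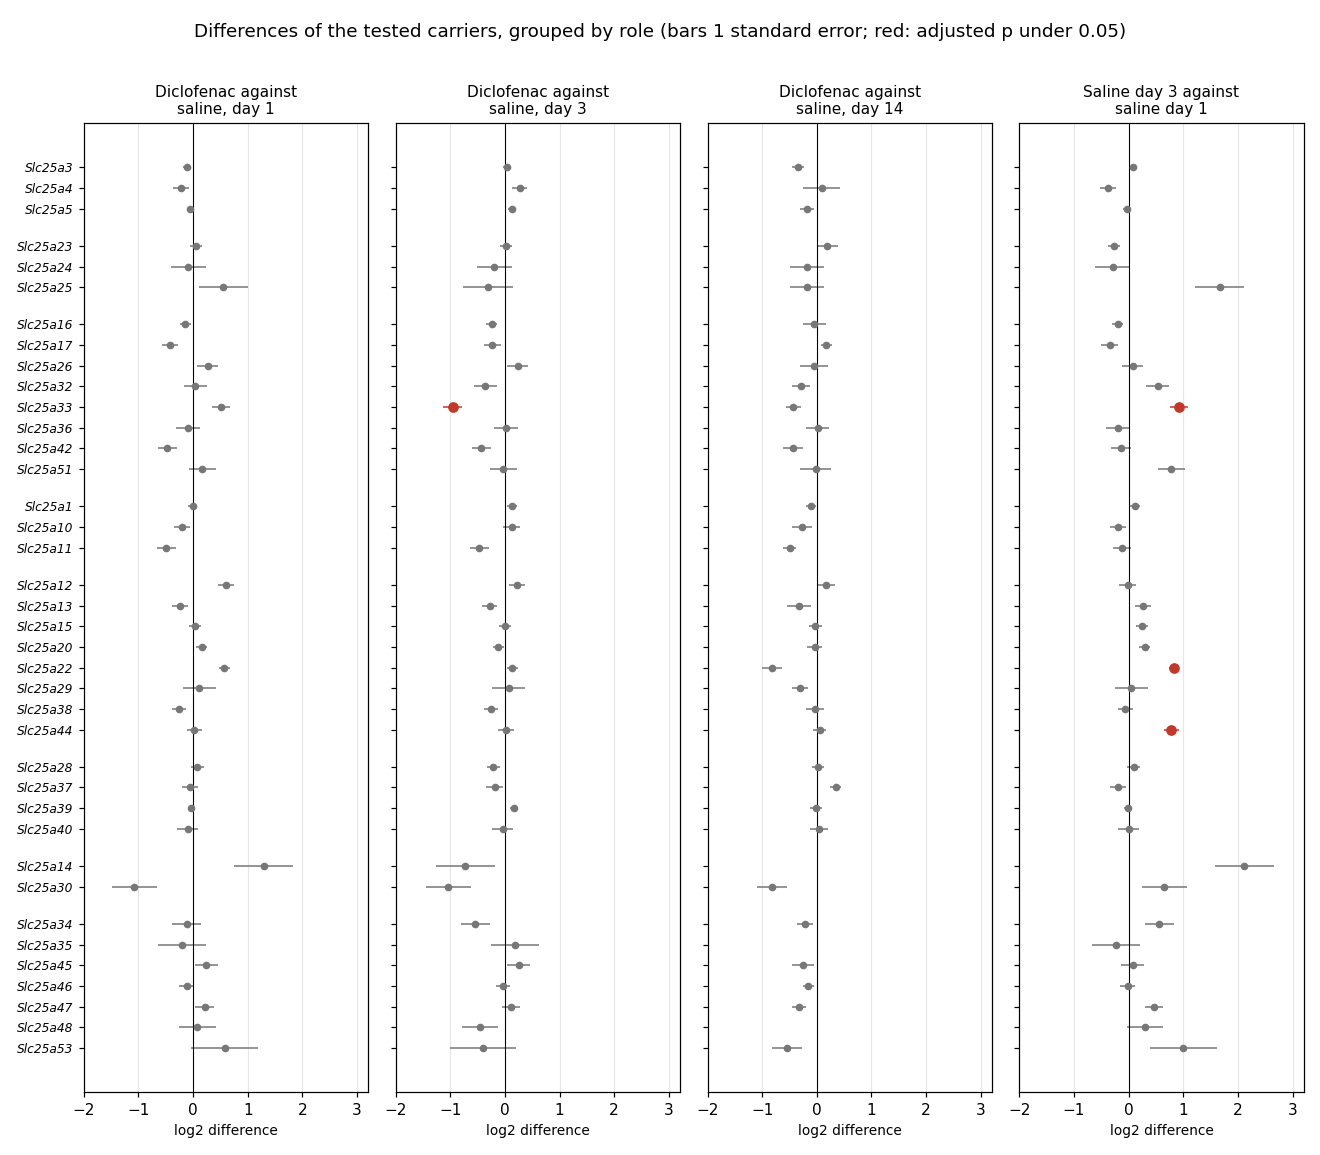
Differences of the tested carriers on the log2 scale in 4 comparisons, 1 row per gene in blocks by role (from the top: adenine nucleotide and phosphate, ATP-Mg/phosphate, nucleotide and cofactor, di- and tricarboxylate, amino acid and carnitine, iron and glutathione, uncoupling protein relatives, less certain substrate). Points are limma estimates with bars of 1 standard error, and red points, Slc25a33 at day 3 and Slc25a22, Slc25a33 and Slc25a44 between saline livers, had an adjusted p under 0.05.

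Slc25a33 (probe set 1424211_at), a carrier of pyrimidine nucleotides, gave the clearest difference at day 3. Its signals were 1343, 1469 and 1838 in diclofenac livers, against 3166, 2845 and 2987 in saline livers of day 3. No diclofenac liver reached a saline liver. The difference was -0.96 ± 0.17 (SE) with an adjusted p of 0.041 in limma, and an exact permutation test gave 0.1 (two-sided, n = 3 each), the smallest p that 3 against 3 allow. At day 1 its signals were 2626, 2595 and 1673 in diclofenac livers and 1713, 1481 and 1571 in saline livers. Here 2 diclofenac livers stood higher and the third lay among the saline livers, with a difference of 0.51 and an adjusted p of 0.3. At day 14 diclofenac livers gave 1550, 1650, 1781, 1422 and 1703, and saline livers gave 1606, 1995, 2510, 2246 and 2694. The groups overlapped through the lowest saline liver, and the difference was -0.43 with an adjusted p of 0.31.

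The saline livers of day 3 stand on one side of both the day 3 difference and the comparison of saline day 3 with saline day 1, so that these values are not independent. Between saline livers Slc25a33 was higher by 0.92 ± 0.17 (SE) at day 3, with an adjusted p of 0.049. Between diclofenac livers of day 3 and day 1, which hold no saline array, it differed by -0.55 with an adjusted p of 0.16. The day 3 effect minus the day 1 effect was -1.47 ± 0.23 (SE), with a 95% interval of -1.98 to -0.96, yet its adjusted p over all genes was 0.272, and no gene passed that test (0.0%), with 4 carriers, against 5.39% of all genes, at an unadjusted p under 0.05. It passed in 1 of 12 fits with 1 array left out, at -1.68 with an adjusted p of 0.00405, and the array left out there, diclofenac day 1 replicate 3, is the one whose value went against the difference, so that nothing is drawn from that fit.

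The call of Slc25a33 at day 3 was lost when any 1 of these arrays was left out: saline day 1 replicates 1, 2 and 3, saline day 3 replicates 1, 2 and 3, and diclofenac day 3 replicates 1 and 2, with differences of -1.0 to -0.87 and adjusted p-values of 0.0617 to 0.25. It held in 4 of the 12 such fits, and without diclofenac day 1 replicate 2, the liver rich in neutrophil transcripts, its adjusted p was 0.00923. The call also ended with quantile normalization (0.0559), the mean of all probe sets (0.0529), one model of all 22 arrays (0.0581) and the methods' own test after adjustment (0.56), at differences of -0.96 to -0.92. Neutrophil marker sums of diclofenac livers at day 3 lay above all saline livers, and their part in this difference was not tested.

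**Figure D2:**
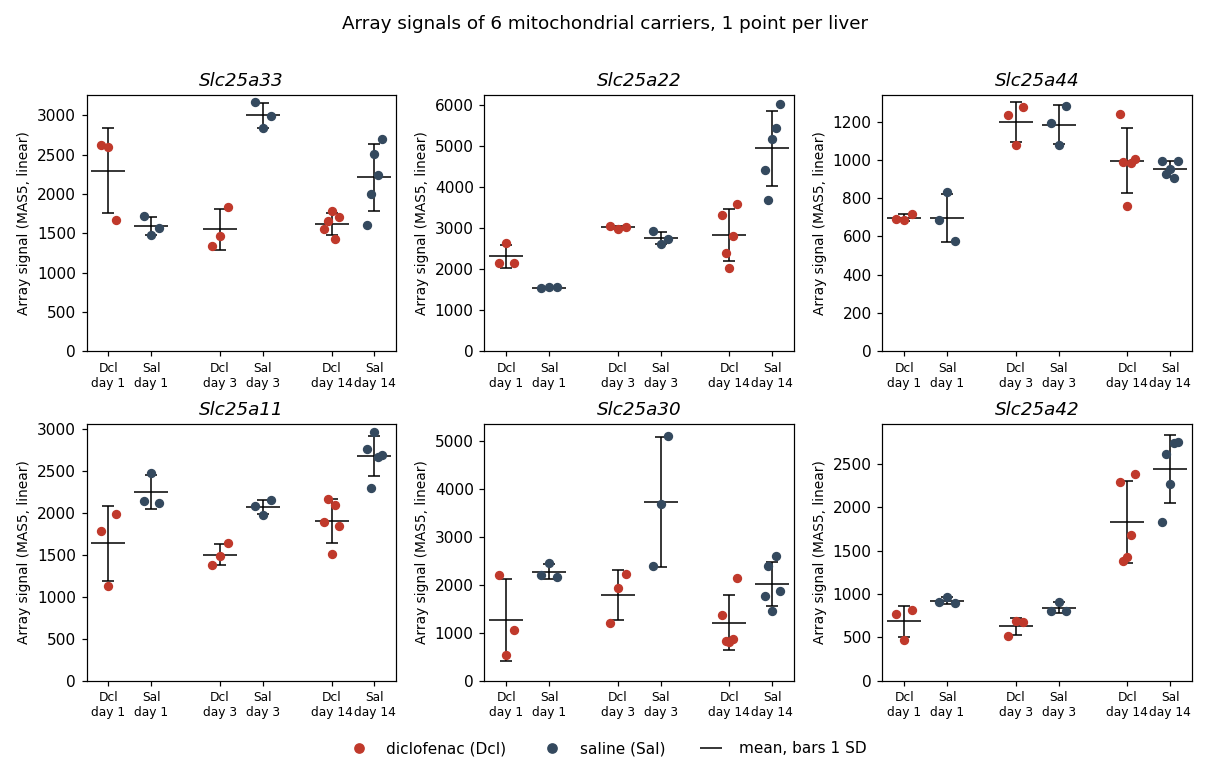
MAS5 array signals on a linear scale (vertical axis) of 6 carriers in diclofenac (Dcl, red) and saline (Sal, dark) livers at days 1, 3 and 14, with 1 point per array and bars for the mean and 1 SD. Slc25a33 lay between 1343 and 1838 in diclofenac livers of day 3, below all saline livers of that day, and Slc25a22 lay below all saline livers at day 14.

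Slc25a22 (probe set 1452653_at) carries glutamate together with protons into the matrix. Its signals at day 1 were 2147, 2629 and 2149 in diclofenac livers and 1529, 1553 and 1548 in saline livers. At day 3 diclofenac livers gave 3050, 2972 and 3024, and saline livers gave 2912, 2610 and 2725. At both days every diclofenac liver lay above every saline liver, by 0.57 at day 1 (adjusted p = 0.14) and by 0.13 at day 3 (adjusted p = 0.65). At day 14 the order was the other way, with 3301, 2396, 2034, 2804 and 3583 in diclofenac livers and 4397, 3672, 5172, 5430 and 6009 in saline livers. The groups did not overlap, the difference was -0.82 ± 0.18 (SE), and its adjusted p was 0.13. An exact permutation test over the 10 arrays gave 0.0079 (two-sided, n = 5 each), the smallest p it allows. Without diclofenac replicate 3 the difference was -0.7 with an adjusted p of 0.0511.

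The day 14 effect on Slc25a22 less the average of its 2 earlier effects was -1.17 ± 0.19 (SE), with a 95% interval of -1.56 to -0.78 and an adjusted p of 0.0417 in a limma model of all 22 arrays. It was the 1 carrier that passed this test, beside 0.0225% of all genes in either direction and 0.0075% lower, and it was the 1 gene that was lower. Saline livers also differed between days. Against saline day 1, saline day 3 was higher by 0.83 ± 0.1 (SE), with an adjusted p of 0.0076. The difference of the effects passed in 8 of 22 fits with 1 array left out. It was lost without saline day 1 replicates 1, 2 or 3, diclofenac day 1 replicate 3, saline day 3 replicates 1, 2 or 3, diclofenac day 3 replicates 1 or 2, saline day 14 replicates 1, 3 or 4, or diclofenac day 14 replicates 2 or 4, at adjusted p-values of 0.0555 to 0.12 and values of -1.21 to -1.12. Without diclofenac day 14 replicate 3 it was -1.06, with an adjusted p of 0.0102.

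The second question was how carriers moved between days in livers that never saw the drug. Slc25a22, Slc25a33 and Slc25a44 were higher in saline livers of day 3 than of day 1, 3 of 38 carriers against 0.217% of all genes called and 0.155% called higher. No carrier was called lower, against 0.0621% of all genes. The median difference was 0.07 for carriers and -0.04 for all genes. All saline livers of day 3 lay above all those of day 1 for 13 carriers, against 8.58% of all genes, and wholly below for 3 carriers, against 12.4%. At an unadjusted p under 0.05 there were 13 carriers, 10 of them higher, against 10.4% and 4.24% of all genes. The 18S control probe sets and the ratio of 3 prime to 5 prime controls differed between these days as well, without overlap, and their part was not tested.

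Slc25a44 (probe set 1433448_at), a carrier of branched-chain amino acids, differed between days and not detectably between treatments. At day 1 its signals were 689, 686 and 719 in diclofenac livers, against 684, 830 and 578 in saline livers. By day 3 the drug-treated livers gave 1237, 1079 and 1278, and the saline livers 1192, 1077 and 1283. In both treatments all livers of day 3 lay above all livers of day 1. The difference was 0.78 ± 0.14 (SE) between diclofenac livers of day 3 and day 1 (adjusted p = 0.032) and 0.78 ± 0.14 (SE) between saline livers (adjusted p = 0.049). Between diclofenac livers of day 3 and day 1 it was the 1 carrier that passed, beside 0.536% of all genes. At day 14 diclofenac livers gave 1241, 988, 761, 983 and 1006, and saline livers gave 994, 925, 951, 904 and 995. The diclofenac livers spread around the saline livers, and the difference of diclofenac and saline was 0.02, 0.02 and 0.05 at days 1, 3 and 14.

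The 3 probe sets of Slc25a44 did not move alike. Between saline livers of day 3 and day 1 they differed by 0.78 and 0.54, both with an adjusted p under 0.05 among all probe sets, and by -0.94 for the dimmest, whose standard error was 0.39. Over the mean of all probe sets the saline difference was 0.12 with an adjusted p of 0.873. With 1 array left out, the saline call of Slc25a44 held in 4 of 12 fits. It was lost without saline day 1 replicates 1 or 3 or any 1 saline or diclofenac array of day 3, with differences of 0.65 to 0.84 and adjusted p-values of 0.0546 to 0.223. The diclofenac call held in 6 of 12 and was lost without diclofenac day 1 replicate 1, saline day 3 replicates 1 or 3, or any 1 diclofenac array of day 3, at adjusted p-values of 0.0526 to 0.13. With array weights it was lost too (0.0507), and Slc25a22 was called in its place. The saline call of Slc25a22 was lost without saline day 1 replicate 1 (0.0753) or 3 (0.062), and that of Slc25a33 without any 1 saline array of either day or diclofenac day 3 replicates 1 or 2 (0.061 to 0.223).

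**Figure D3:**
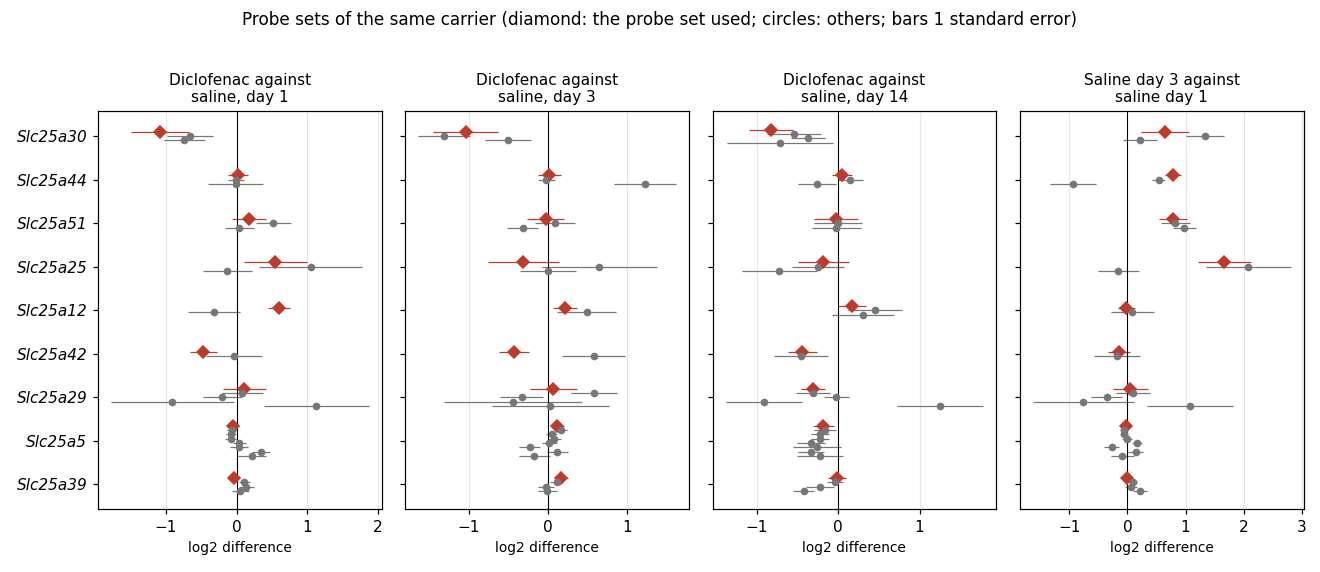
Differences on the log2 scale of the single probe sets of 9 carriers in 4 comparisons, with bars of 1 standard error. Red diamonds mark the probe set used for the gene, and grey circles mark its other probe sets that passed the filter. The probe sets of Slc25a30 lay on the same side of 0 in the 3 diclofenac comparisons, while those of Slc25a44 and Slc25a29 lay on both sides between saline livers.

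The third question was which carriers differed over the 3 days together. The mean of the diclofenac effects of days 1, 3 and 14, a comparison added after the effects of the days had been seen, called Slc25a11 and Slc25a30, both lower, among 38 carriers. Of all genes 1.68% were called and 0.442% were lower.

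Slc25a11 (probe set 1426586_at) exchanges 2-oxoglutarate for malate and is one of the carriers of the malate-aspartate shuttle. Diclofenac livers gave 1788, 1132 and 1990 at day 1, against 2147, 2476 and 2122 in saline livers. At day 3 the signals were 1381, 1488 and 1638 in diclofenac livers and 2086, 1975 and 2150 in saline livers. At day 14 they were 1891, 2170, 1505, 2099 and 1839 in diclofenac livers and 2763, 2297, 2963, 2665 and 2693 in saline livers. At each of the 3 days every diclofenac liver lay below every saline liver. The differences were -0.49, -0.47 and -0.5, with adjusted p-values of 0.31, 0.33 and 0.16, and the mean effect was -0.49 ± 0.09 (SE) with an adjusted p of 0.0065. The exact permutation test gave 0.1, 0.1 and 0.0079 at the 3 days (two-sided), in each case the smallest p it allows. The mean effect passed in all 22 fits with 1 array left out, at -0.54 to -0.41. Without diclofenac day 1 replicate 2, the lowest liver, the day 1 difference was -0.25 and the mean effect -0.41. The day 3 difference, to which this array adds error only, stayed at -0.47 and passed with an adjusted p of 0.0353. That was the 1 pass in 12 such fits, and 178 genes passed there in place of 26.

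Slc25a30 (probe set 1420836_at), a relative of the uncoupling proteins first described in kidney, spread more widely. Diclofenac livers gave 2202, 535 and 1048 at day 1, and saline livers gave 2202, 2447 and 2162. At day 3 the signals were 1205, 1926 and 2213 in diclofenac livers and 2393, 3683 and 5103 in saline livers. At day 14 they were 1372, 834, 810, 867 and 2144 in diclofenac livers and 1764, 2388, 1452, 2589 and 1866 in saline livers. The groups were apart at day 3 and overlapped at days 1 and 14, in each case through 1 diclofenac liver. The differences were -1.08, -1.04 and -0.82, with adjusted p-values of 0.33, 0.37 and 0.32, and the mean effect was -0.98 ± 0.22 (SE) with an adjusted p of 0.025. The mean effect passed in 17 of 22 fits with 1 array left out, and was lost without saline day 1 replicate 2, diclofenac day 1 replicate 2, saline day 3 replicates 2 or 3, or diclofenac day 3 replicate 1, at -0.97 to -0.81 and adjusted p-values of 0.0515 to 0.0723. Without diclofenac day 1 replicate 2 the day 1 difference was -0.58. Its other tested probe sets gave differences of -0.74 and -0.66 at day 1. Those of day 3 were -0.5 and -1.31, while day 14 gave -0.37, -0.54 and -0.71, and none passed the test. The call of the mean effect was also lost with the mean of all probe sets, at -0.64 with an adjusted p of 0.0841.

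Slc25a42 (probe set 1424790_at), a carrier of coenzyme A, had differences of -0.47, -0.43 and -0.44 and did not pass for the mean effect, which was -0.45 ± 0.12 (SE) with an adjusted p of 0.057. Its signals were 764, 473 and 811 in diclofenac livers and 905, 966 and 898 in saline livers at day 1, and 517, 690 and 671 against 806, 910 and 806 at day 3. The groups were apart at both days. At day 14 diclofenac livers gave 2289, 1383, 1427, 1677 and 2382, and saline livers gave 1826, 2619, 2265, 2739 and 2755, with overlap. A second, dimmer probe set of Slc25a42 gave 0.58 at day 3, against -0.43 for the one used.

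The promoters of Slc25a33, Slc25a11 and Slc25a30 are shown because these carriers were called lower in diclofenac livers and have a single start in the RefSeq promoter table (build GRCm38.p6, 250 bases before to 50 after the start, all on the minus strand). The windows lie at chr4:149774218-149774517, chr11:70646990-70647289 and chr14:75786988-75787287, for the genes in that order. Capitals mark matches on either strand to the E-box CACGTG, the cyclic AMP response core TGACG, the CCAAT box or the GC box GGGCGG, short motifs chosen after the sequences had been read.
Slc25a33: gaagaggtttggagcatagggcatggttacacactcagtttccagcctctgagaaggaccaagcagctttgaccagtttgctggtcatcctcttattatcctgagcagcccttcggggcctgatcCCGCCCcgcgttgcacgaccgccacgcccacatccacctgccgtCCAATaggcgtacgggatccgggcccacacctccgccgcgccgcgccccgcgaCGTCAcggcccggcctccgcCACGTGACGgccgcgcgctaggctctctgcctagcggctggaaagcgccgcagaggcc
Slc25a11: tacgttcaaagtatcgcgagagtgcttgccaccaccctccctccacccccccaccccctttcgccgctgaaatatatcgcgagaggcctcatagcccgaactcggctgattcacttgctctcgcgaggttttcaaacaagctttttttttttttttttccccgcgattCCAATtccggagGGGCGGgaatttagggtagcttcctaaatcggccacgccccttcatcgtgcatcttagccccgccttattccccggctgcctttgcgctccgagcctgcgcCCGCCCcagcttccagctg
Slc25a30: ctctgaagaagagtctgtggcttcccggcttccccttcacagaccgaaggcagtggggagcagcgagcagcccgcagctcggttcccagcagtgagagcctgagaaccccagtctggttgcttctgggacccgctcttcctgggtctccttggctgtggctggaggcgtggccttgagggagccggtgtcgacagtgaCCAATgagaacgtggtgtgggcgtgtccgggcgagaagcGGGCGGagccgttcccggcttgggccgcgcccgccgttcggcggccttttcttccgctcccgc

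The Slc25a33 window held CACGTG once, in overlap with 1 of its 2 matches to TGACG, and 1 match each to CCAAT and GGGCGG. The Slc25a11 window held 1 match to CCAAT and 2 to GGGCGG, and the Slc25a30 window held 1 of each. Of 32851 promoters of the same length 7.15% held the E-box, 20.8% the cyclic AMP core, 37.4% the CCAAT box and 35.7% the GC box. Of the 43 promoters listed for 34 of the carriers, 8 held the first, 13 the second, 21 the third and 37 the fourth. A match describes letters in the window and no binding was measured.

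Among the carriers of adenine nucleotides and phosphate no member of 3 tested passed the test of a diclofenac difference at any day. Slc25a5, the adenine nucleotide translocase most used by growing tissues, and Slc25a3, which brings in phosphate for ATP synthesis, differed by -0.05 and -0.12 at day 1 and by 0.12 and 0.03 at day 3. At day 14 Slc25a3 gave 17047, 15438, 15592, 16485 and 15741 in diclofenac livers and 17280, 17641, 21535, 22522 and 23655 in saline livers. All diclofenac livers lay below all saline livers, by -0.34 with an adjusted p of 0.31. Slc25a4, the translocase of heart and muscle, was unlike its relatives in 1 liver, diclofenac day 14 replicate 3, with 813, against 183 to 302 in the other diclofenac livers and 229 to 388 in saline livers.

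The ATP-Mg/phosphate carriers, which set the pool of adenine nucleotides in the matrix and respond to calcium, also had no call among 3 tested. Slc25a25 gave 741, 574 and 744 in diclofenac livers and 449, 1032 and 1308 in saline livers at day 3, against 231, 897 and 280 and 276, 235 and 288 at day 1. Saline livers of day 3 all lay above saline livers of day 1, by 1.67 ± 0.45 (SE) with an adjusted p of 0.18. Diclofenac day 1 replicate 2 stood above the other livers of day 1, and in a fit without it, where it adds to the error only, the adjusted p of the saline difference was 0.0267. That was the 1 pass in 12 fits with 1 array left out, and 120 genes passed there in place of 28, so that nothing is drawn from it. The 3 probe sets of Slc25a25 ran from -0.31 to 0.65 between diclofenac and saline livers of day 3. Slc25a23 differed by 0.06, 0.02 and 0.19 between diclofenac and saline livers at days 1, 3 and 14.

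Of 8 tested carriers of nucleotides and cofactors Slc25a33 alone passed. Slc25a51, which brings NAD into the matrix, was higher in saline livers of day 3, with 2792, 4076 and 2704, than in those of day 1, with 1551, 2096 and 1855. The groups did not overlap, and the difference was 0.78 with an adjusted p of 0.25. Its 2 other probe sets gave 0.82 and 0.98. Between diclofenac and saline livers it differed by 0.17, -0.03 and -0.02 at days 1, 3 and 14.

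Of 8 tested carriers of amino acids and carnitine none passed in a comparison of diclofenac with saline within a day. Slc25a12 and Slc25a13 are the aspartate/glutamate carriers of the malate-aspartate shuttle. Slc25a12 gave 768, 1178 and 895 in diclofenac livers and 545, 627 and 678 in saline livers at day 1, with no overlap, a difference of 0.6 and an adjusted p of 0.23. Its dimmer second probe set gave -0.32, so that the direction for Slc25a12 at day 1 depended on the probe set. Slc25a13, the form that serves the urea cycle in hepatocytes, differed by -0.24, -0.28 and -0.33 at days 1, 3 and 14, and by -0.09 at day 14 without diclofenac replicate 3. Slc25a15, the ornithine carrier of the urea cycle, differed by 0.03, 0.0 and -0.03, and Slc25a20, which passes acylcarnitines for fatty acid oxidation, by 0.16, -0.12 and -0.04. Slc25a29, a carrier of basic amino acids, had 5 probe sets tested whose differences ran from -0.91 to 1.13 at day 1 and from -0.91 to 1.25 at day 14, so that no direction can be given for it.

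The citrate carrier Slc25a1, which supplies acetyl units for lipid synthesis, differed by -0.01, 0.13 and -0.11 at days 1, 3 and 14. Of 4 tested carriers of iron and glutathione none passed. The mitoferrin Slc25a37, which brings iron in for heme, gave 1095, 995, 923, 1067 and 827 in diclofenac livers and 745, 819, 798, 733 and 728 in saline livers at day 14. All diclofenac livers lay above all saline livers, and the difference was 0.35 ± 0.1 (SE) with an adjusted p of 0.25. It was the 1 carrier wholly higher at that day. Slc25a39, which brings glutathione into the matrix, differed by -0.03, 0.17 and -0.01.

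Among carriers whose substrate is less certain, Slc25a47, expressed almost only in liver, gave 29037, 21389, 29770, 25603 and 29987 in diclofenac livers of day 14 and 34167, 30587, 29890, 39753 and 36009 in saline livers. A single saline liver lay inside the diclofenac range, and the difference was -0.33 with an adjusted p of 0.38. Slc25a46, a carrier-like protein of the outer membrane tied to mitochondrial fusion, differed by -0.12, -0.04 and -0.16. Slc25a14, a relative of the uncoupling proteins, gave 131, 91.3 and 55.5 in diclofenac livers and 41.5, 44 and 24.6 in saline livers at day 1, and 171, 38.3 and 122 against 181, 152 and 133 at day 3. Its saline livers of day 3 all lay above those of day 1, by 2.12 ± 0.54 (SE) with an adjusted p of 0.15. It lay above the array's median in 9 of 22 arrays only, none of them a saline array of day 1.

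Single livers weighed on many of these values. Among the diclofenac livers of day 1, replicate 2, with the largest neutrophil marker sum, lay farthest from the mean of the saline livers for 24 of 38 carriers, 63.2%, against 55.6% of all genes. Among those of day 14, replicate 3 lay farthest for 18 of 35 carriers, 51.4%, against 55.3% of all genes. Both shares were near those of all genes. The 2 livers lay on the same side of their saline mean for 23 of the 35 carriers tested at both times, 65.7%, against 69.0% of all genes.

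Several carriers were extreme in both livers on the same side, Slc25a11 and Slc25a51 among them. Others, by log2 distance from the saline mean, were Slc25a13 at -0.51 and -1.29, Slc25a10 at -0.46 and -1.09 and Slc25a12 at 0.94 and 0.66. The share of such genes among all genes was not counted. For Slc25a11 the log2 signal lay from the saline mean by -0.99 in day 1 replicate 2 and by -0.83 in day 14 replicate 3, against -0.33 and -0.17 in the other diclofenac livers of day 1 and -0.54 to -0.3 in those of day 14. For Slc25a51 it lay by 0.76 and 1.02 in these 2 livers, against -0.35 and 0.11 in the others of day 1 and -0.41 to -0.15 in those of day 14. Slc25a30 lay by -2.08 and -1.28, but at day 14 replicates 2 and 4 came close to that, at -1.24 and -1.18. For Slc25a42 replicate 2 of day 14, at -0.8, lay farther than replicate 3, at -0.76. Other carriers lay on opposite sides in the 2 livers, among them Slc25a22 at 0.77 and -1.26. For Slc25a22 this held for the whole groups, at 0.48 to 0.77 at day 1 and -1.26 to -0.44 at day 14. Slc25a26, a carrier of S-adenosylmethionine, lay at 0.29 and -1.05, and at day 1 the other diclofenac livers lay at 0.18 and 0.34. These genes were picked for display after the values had been seen, and the part of infiltrating cells was not tested.

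**Figure D4:**
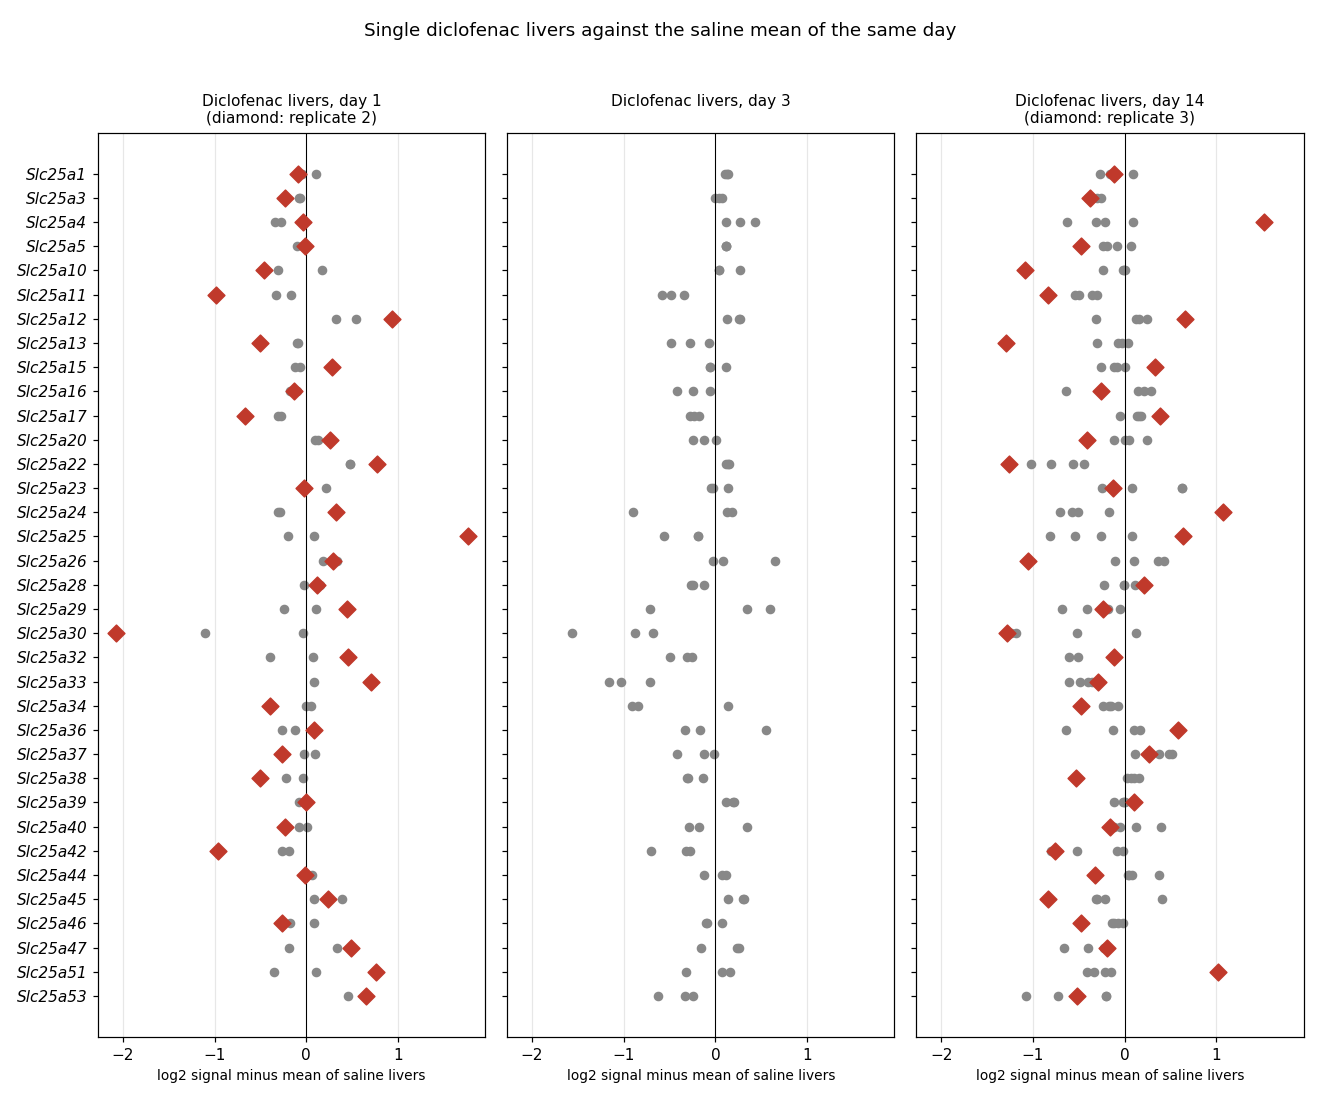
Log2 signal of each diclofenac liver minus the mean of the saline livers of its day (horizontal axis) for the 35 carriers tested at all days, at days 1, 3 and 14, 1 point per liver. Red diamonds mark day 1 replicate 2 and day 14 replicate 3, which lay at 0.76 and 1.02 for Slc25a51 and at 0.77 and -1.26 for Slc25a22. For Slc25a22 the other diclofenac livers of these days lay on the same side as the diamond of their day.

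Other genes of mitochondrial transport gave no calls, beside 0.0% to 1.68% of all genes over the 8 comparisons. At these shares lists as short as those below would hold few calls or none. Of 3 tested family members under other symbols, 13 other transporters and channels of the mitochondrial membranes, 12 genes for import of carrier proteins, 12 enzymes served by carriers and 8 regulators of mitochondrial mass, none passed limma's test in any of the 8 comparisons. Their median differences at day 14 were -0.26, -0.12, -0.06, -0.33 and -0.25, beside -0.16 for the carriers and -0.01 for all genes tested. At day 3 they were -0.03, -0.04, 0.0, -0.02 and -0.13.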

How the data were processed

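Total liver RNA of 22 samples was measured, 1 array each. The authors processed the arrays with MAS5, per the submitters' processing notes, and deposited linear signal intensity values scaled to a trimmed mean of 500.0 per array, with 2% left out at either end. The values carry no detection calls or scan dates, and their number of arrays limits the precision. Deposited intensity values were taken to log2 with no further scaling, and no pseudocount was needed because the lowest value was 0.0546. Probe sets with 1 gene symbol were used (34958, with 932 assigned to several symbols and 9211 to none), and the probe set of highest mean over all arrays stood for a gene. One probe set shared by Slc25a37 and another gene was not used.

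Models of group means were fitted in limma 3.58.1 (R 4.3.3, lmFit and eBayes with a trend) on the 12 arrays of days 1 and 3, the 10 of day 14, or all 22 for differences between days, two-sided, with Benjamini-Hochberg adjustment over all genes tested and a threshold of 0.05. Tables and figures used Python 3.11.15, pandas 2.3.3, numpy 2.4.6, scipy 1.17.1 and matplotlib 3.10.9. Data were simulated with 100 genes changed by each fold and normal noise independent between genes and arrays. On the 12884 genes of days 1 and 3, the test recovered 44% of 2-fold and 74% of 4-fold changes at day 1. It recovered 57% and 79% at day 3 and 52% and 81% between saline livers. On the 11884 genes of day 14 it recovered 57% and 88%. Arrays that stand apart were not simulated, so these shares do not give the power in these data. Replicate numbers were not used to pair samples.

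The members and gene lists were chosen with earlier results of these data known. Members named with values were those past the test, and Slc25a30 and Slc25a33, which earlier results of these data had named. The 4 of largest difference without overlap in each main comparison and the 8 of highest signal were also named. So were those whose probe sets disagreed and the brightest of each role. Others were named for single livers after their values had been seen. Alternatives changed the filter, scaling, probe-set choice, model, array weights, test and replicate block, and left out each array in turn.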

Additional observations from a re-analysis of the deposited data

Results flagged for a closer look

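Single arrays far from the rest of their group, by Dixon's criterion at 95%, were sought in 70 groups of 5 arrays, and 7 were found. Chance alone marks about 1 group in 20. Of the 7, 5 were diclofenac day 14 replicate 3, 5 of 35 carriers, beside 14.1% of all genes for that array. In that liver Slc25a10 was 1399, against 2533 to 2968 in the other diclofenac livers, Slc25a13 was 3382, against 6713 to 8520, Slc25a38, a glycine carrier for heme synthesis, was 478, against 706 to 772, and Slc25a46 was 3023, against 3792 to 4120. Slc25a51 was 9076 there, against 3352 to 4016 in the others. The neutrophil marker sum of the same liver was 24393, and several other cell type sums stood apart in it as well. The part of these sums in the values above was not tested. In saline livers of day 14 Slc25a1 was 2666 in replicate 4, against 2422 to 2473 in the others, and Slc25a34 was 185 in replicate 1, against 249 to 276.

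The diclofenac effect on Slc25a22 differed between day 14 and the mean of days 1 and 3, by -1.17 on the log2 scale with an adjusted p of 0.0417 in limma. This passed in 8 of 22 fits with 1 array left out. It was also lost with no filter (adjusted p = 0.0508), centring on the array median (0.133) or every probe set on its own (0.0588). Diclofenac livers lay above saline livers at days 1 and 3 and below them at day 14.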

How the results depend on the processing

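Counts of carriers called were recomputed under each alternative. Day 1: 0 in the main limma fit and 1 (Slc25a14) with the methods' t-test and its 1.5-fold threshold. At an unadjusted p under 0.01 with 1.5-fold there was 1 (Slc25a12). Day 3: 1 in the main fit, and 0 with quantile normalization, the mean of all probe sets, a model of all 22 arrays or the methods' t-test after adjustment. Day 14: 0 in the main fit, 1 (Slc25a22, lower) with all 22 arrays or with array weights, 2 with the methods' t-test and 1 at p under 0.01 with 1.5-fold. Saline day 3 against day 1: 3 in the main fit, 1 with no filter, 1 with the mean of all probe sets, 5 with array weights, 5 with the methods' t-test, 0 with that test adjusted, 6 at p under 0.01 with 1.5-fold, and 2 with quantile normalization or all 22 arrays. Diclofenac day 3 against day 1: 1 in the main fit, and 0 with centring, the mean of all probe sets or the adjusted t-test; with array weights the 1 carrier was Slc25a22, not Slc25a44. The day 3 effect minus the day 1 effect: 0 in the main fit and 1 at p under 0.01 with 1.5-fold. Day 14 minus early: 1 in the main fit, and 0 with no filter, with centring or with every probe set on its own. The mean effect: 2 in the main fit, 1 (Slc25a11) with the mean of all probe sets, 4 with array weights and 1 (Slc25a30) at p under 0.01 with 1.5-fold. Apart from the choice of test, threshold or tested genes, the cause was not tested. Among all genes, centring on the array median gave 21 higher and 4 lower calls between saline livers, beside 20 and 8, and 15 calls at day 14, beside 0. All-gene counts moved with the setting too. At day 3 there were 26 calls in the main fit, 156 with array weights, 321 with the methods' t-test at 1.5-fold and 1 with all 22 arrays. Between saline livers there were 28, 224, 278 and 22 in the same order, and 2 with the mean of all probe sets. At day 14 array weights gave 109 and all 22 arrays 133. For the mean effect there were 224 and, with array weights, 484. At an unadjusted p under 0.01 with 1.5-fold, 248 of all genes were called at day 1, 205 at day 14 and 194 between saline livers. The same rule called 96 for the day 3 effect minus the day 1 effect and 285 for the mean effect.

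Differences that changed sign were small or rested on dim probe sets. With the mean of all probe sets Slc25a12 was -0.31 at day 1, and Slc25a25 was 0.12, Slc25a29 -0.02 and Slc25a42 0.07 at day 3. Slc25a29 was -0.05 at day 1 with array weights. The day 3 effect minus the day 1 effect on Slc25a30 was -0.03 with centring and -0.35 with array weights. With 1 array left out, counts ran from 0 to 2 at day 3, from 0 to 4 between saline livers, from 0 to 2 between diclofenac livers, from 0 to 1 for both differences of effects and from 1 to 4 for the mean effect, and stayed at 0 at days 1 and 14. Slc25a25 then ran from -0.77 to 0.0 at day 3, Slc25a29 from -0.11 to 0.28 at day 1, from -0.18 to 0.46 at day 3 and from -0.16 to 0.16 between saline livers, and Slc25a30 from -0.47 to 0.55 for day 3 minus day 1 and from -0.01 to 0.5 for day 14 minus early.

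Samples share only replicate numbers across groups: the residuals of same-numbered arrays correlated above 0.1 in 1 of 11 pairs. With the replicate block the counts of carriers were 0 at day 1, 0 at day 3, 0 at day 14 and 1 between saline livers. They were 0 between diclofenac livers, 0 for day 3 minus day 1, 1 for day 14 minus early and 1 (Slc25a11) for the mean effect. Among all genes this fit called 0 at day 1, 3 at day 3, 1 at day 14 and 4 between saline livers. It called 17 between diclofenac livers, 0 for day 3 minus day 1, 1 for day 14 minus early and 167 for the mean effect.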
